A study of Mus musculus with 5 samples.

Results

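CpG methylation was read in the exons of zinc finger (Zfp) genes away from promoters, on the autosomes of female mouse embryonic fibroblasts (MEFs). A position was one cytosine of a reference CpG, with the strands kept apart, on chromosomes 1 to 19. It had to lie in an exon of a protein-coding GENCODE M21 gene (mm10) whose symbol starts with Zfp and more than 1 kb from every protein-coding transcription start site. It also needed at least 10 calls in every one of the 5 libraries on the allele described, where a call is the reading of one CpG by one read. The stretch of chromosome 4 from 145.0 to 148.0 Mb was left out. On the domesticus allele 411 positions in 54 genes qualified, of 14512 such exonic positions in 3013 protein-coding genes. On the castaneus allele there were 447 positions in 54 genes, of 15664 in 3222 genes. The alleles shared 259 positions, and together they gave 599 positions in 63 of the 388 annotated Zfp genes.

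The libraries came from enhanced reduced representation bisulphite sequencing (eRRBS), which reads mostly CpG-rich MspI fragments, of E13.5 MEFs from 129/C57 dams and CAST sires. The Female control group held 3 libraries, Setdb1+/+ Xist-deltaA/+ and transduced with the Nonsilencing hairpin. The Setdb1 depleted group held 2 libraries, Setdb1+/gt Xist-deltaA/+ and transduced with a hairpin against Setdb1. The deltaA allele of Xist was shared by both groups, and the gene trap was heterozygous. Genotype and hairpin differed together and cannot be told apart. The level of Setdb1 and the markers of fibroblasts cannot be read from methylation calls. The labels do not say whether the libraries of a group came from separate embryos, so p-values measure only the spread between these samples. Each library held 9440874 to 10558931 calls per allele. The promoter region of the imprinted gene Zrsr1, methylated on the maternal copy, had 93.1 to 97.4% mC on the domesticus and 0.784 to 4.62% on the castaneus allele. The region around the start of Plagl1, also imprinted, had 3.93 to 7.87% and 2.55 to 4.41%, with no such gap. Whether that region holds the imprinted mark was not examined. Mest, Peg3 and Snrpn had few or no calls, so the reading of the alleles rests on Zrsr1. Strain and parent of origin coincide, so an allele difference cannot be assigned to either.

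Zinc finger proteins of the C2H2 class bind DNA through tandem finger repeats, and most of their genes encode the whole finger array in one long last exon. Many carry a KRAB box at the amino terminus, which recruits Trim28 (KAP1) and through it the H3K9 methyltransferase Setdb1. The repeated exons of these genes, often in clusters, are themselves known to carry H3K9me3 and DNA methylation. Some genes named Zfp are of other classes, among them the CCCH RNA-binding protein Zfp36l2. The motif search used here found no C2H2 finger in the corepressors Zfp503 and Zfp703, and it can miss fingers of unusual spacing.

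The 63 measured genes were not a cross-section of the family. A KRAB motif was found in the translated sequence of 16 of them (25.4%), against 230 of the 388 annotated genes (59.3%), and a SCAN motif in 1 measured and 9 annotated genes. Another Zfp gene lay within 250 kb of 31 measured genes (49.2%) and of 244 annotated ones (62.9%). The measured genes had a median of 8 fingers and the annotated genes a median of 10. The annotated genes were counted with the chromosome 4 stretch included, and positions in that stretch could not be measured, so these contrasts partly follow from the rule. Any called exonic position away from a start site was present in 253 genes, and the call minimum left 63 of them. A further copy of the sequence within 50 bases on either side (at least 90% identity) was present in the reference for 25 of the 599 positions.

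The sequences below are shown because they carry the range of levels found. They include finger-coding exons with almost no mC (Zfp771) or little mC (Zfp697), and exons that were nearly fully methylated. An early and a late part of the Zfp316 finger array and the exons with the widest allele gaps are also among them. Each is the coding strand of the reference (mm10) from 5′ to 3′, and capitals mark the CpGs measured on at least one allele.
Zfp771 fingers 3 and 4 (chr7:127254039-127254180, plus strand): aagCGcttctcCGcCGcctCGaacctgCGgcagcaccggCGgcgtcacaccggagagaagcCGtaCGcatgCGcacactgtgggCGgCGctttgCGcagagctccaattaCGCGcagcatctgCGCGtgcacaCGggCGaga
Zfp697 around finger 5 (chr3:98427991-98428113, plus strand): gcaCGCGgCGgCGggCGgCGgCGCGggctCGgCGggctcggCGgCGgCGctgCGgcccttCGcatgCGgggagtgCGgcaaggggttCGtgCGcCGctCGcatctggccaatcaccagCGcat
Zfp316 fingers 11 and 12 (chr5:143253555-143253695, minus strand): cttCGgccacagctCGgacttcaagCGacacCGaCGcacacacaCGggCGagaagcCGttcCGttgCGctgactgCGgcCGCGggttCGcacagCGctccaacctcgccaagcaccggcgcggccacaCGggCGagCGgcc
Zfp316 fingers 1 and 2 (chr5:143255094-143255177, minus strand): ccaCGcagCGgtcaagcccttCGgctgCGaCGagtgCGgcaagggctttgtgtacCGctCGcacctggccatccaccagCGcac
Zfp398 (chr6:47866690-47866764, plus strand): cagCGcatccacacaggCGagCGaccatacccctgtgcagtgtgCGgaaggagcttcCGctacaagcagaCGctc
Zfp775 (chr6:48620191-48620378, plus strand): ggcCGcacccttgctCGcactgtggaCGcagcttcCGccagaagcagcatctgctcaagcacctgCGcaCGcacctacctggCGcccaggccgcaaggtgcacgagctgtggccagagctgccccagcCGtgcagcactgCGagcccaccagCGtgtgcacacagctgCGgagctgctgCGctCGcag
Zfp777 fingers 6 and 7 (chr6:48024856-48024904, minus strand): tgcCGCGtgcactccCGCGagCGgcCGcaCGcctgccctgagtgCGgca
Zfp169 noncoding exon (chr13:48498080-48498173, minus strand): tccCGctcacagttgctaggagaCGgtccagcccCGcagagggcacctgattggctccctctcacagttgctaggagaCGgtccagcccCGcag
The Zfp771 and Zfp697 stretches are packed with CpGs, and their control means were 0.263% (domesticus) and 0.426% (castaneus) for Zfp771, and 9.06% and 10.95% for Zfp697. The Zfp398 stretch holds 6 CpGs in 75 bases, at 95.4% on domesticus and 96.0% on castaneus. Fingers 1 and 2 and fingers 11 and 12 of Zfp316 lie in the same exon and differ in CpG number, with 9 CpGs in 84 bases and 22 in 141 bases.

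Most Zfp exons were highly methylated. Averaging the positions of a gene, the 40 last exons measured on domesticus had a median of 89.7% mC in the controls, 28 of them (70.0%) were above 80%, and 4 were below 20%. On castaneus 26 of 38 last exons (68.4%) were above 80% and 4 below 20%, with a median of 88.3%. Of the other exons, 12 of 18 genes on domesticus and 13 of 19 on castaneus were above 80%. Taken singly, 133 of the 300 last-exon positions on domesticus (44.3%) were above 80% and 60 below 20%, and on castaneus 37.5% and 31.9% of 317 were. Both strands of the same CpG gave close values: the median strand difference was 3.02 percentage points over 59 CpGs on domesticus and 3.45 over 69 CpGs on castaneus.

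**Figure D1:**
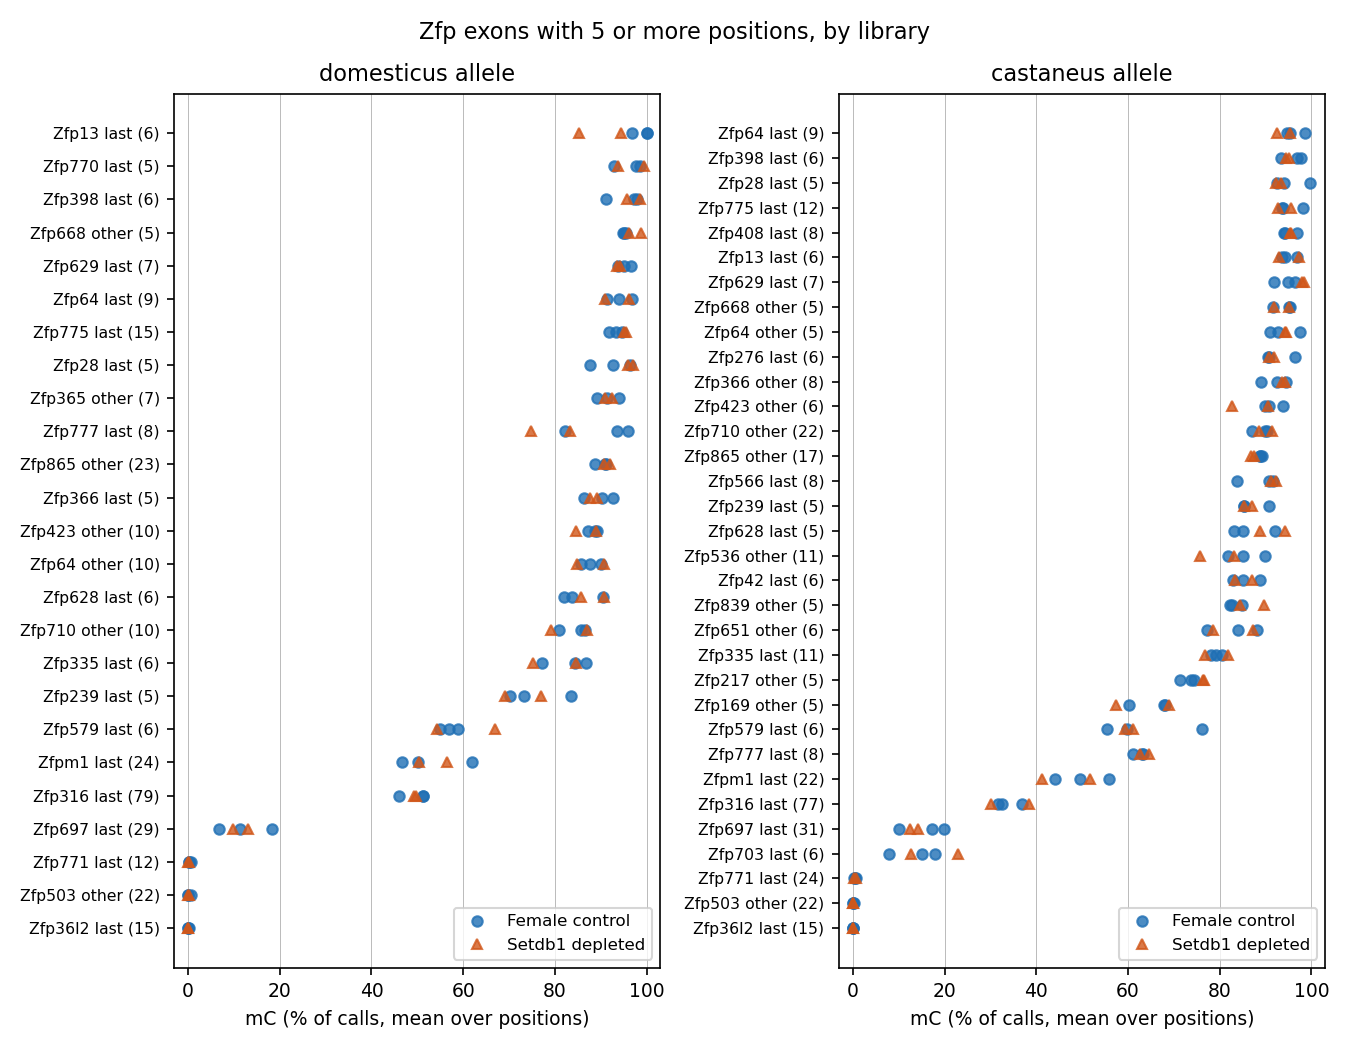
The mean % mC of each Zfp gene and exon class with 5 or more positions (number in brackets) is plotted for every library on the domesticus (left) and castaneus (right) allele, with circles for the 3 Female control and triangles for the 2 Setdb1 depleted libraries. Most genes sit above 80%, Zfp316 and Zfpm1 lie near the middle, and Zfp771, Zfp503 and Zfp36l2 lie near 0 in all 5 libraries.

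The last exon of Zfp771 (chr7:127253805-127254803) encodes all 8 fingers of the protein. Over its 12 domesticus positions mC was 0.117, 0.56 and 0.113% in the control libraries and 0.119 and 0% in the depleted libraries. The 0 stands on 814 calls and allows up to 0.369% if every call is independent. Each position had 67 to 75 calls, and a read can cover several of these CpGs, so this limit is too narrow. Over 24 castaneus positions it was 0.59, 0.479 and 0.208% in controls and 0.231 and 0.699% in the depleted libraries. All these positions lie in fingers 3 and 4, the linker between them and the bases just behind finger 4. They were almost free of mC in every library, and the groups overlapped. The other fingers of this exon were not measured. Zfp36l2, which binds AU-rich mRNA and promotes its decay, was at 0% over 15 last-exon positions in all 5 libraries on castaneus (311 to 1081 calls, allowing up to 0.965%). On domesticus it was at 0% in 4 libraries (442 to 778 calls, allowing up to 0.679%) and at 0.133% in Female control replicate 2. Both Zfp36l2 limits also take every call as independent and are too narrow where a read covers several CpGs. Zfp503, a corepressor in which no C2H2 finger pattern was found, was at most 0.545% in any library over 22 untranslated positions outside its last exon.

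Zfp697 and Zfp703 were low. Zfp697, with 11 fingers in its last exon, had 11.4, 18.4 and 6.82% mC over 29 domesticus positions in controls and 9.74 and 12.98% in the depleted libraries. On castaneus it had 19.9, 17.3 and 10.1% over 31 positions in controls and 12.4 and 14.2% after depletion. The control libraries spread more widely than the group means differed on both alleles, and the depleted values fell inside the control range. Within this exon the first stretch had 16.7% ± 8.15 (SD, n = 3) over 12 domesticus positions with 9 to 21 CpGs within 100 bases on either side, and the stretch around finger 5 had 9.06% ± 4.27 over 17 positions with 32 to 36 CpGs. The first stretch was higher in 5 of 5 libraries on each allele: on domesticus the libraries had 14.5, 25.7 and 9.78% (controls) and 15.01 and 17.6% (depleted) there, and 9.20, 13.3 and 4.72% and 6.03 and 9.72% around finger 5. Zfp703, a corepressor, had 17.8, 15.1 and 7.94% over 6 castaneus positions in controls and 22.8 and 12.7% in the depleted libraries. Its 1 domesticus position had 0, 2.35 and 2.63% (controls) and 0 and 4.17% (depleted), where the zeros stand on 41 to 75 calls and allow up to 7.32%.

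At the other end were Zfp13, Zfp770, Zfp398, Zfp64, Zfp408 and Zfp629, whose last exons had control means of 94.8 to 96.95% over the alleles measured. In Zfp398 the libraries had 91.2, 97.2 and 97.9% (controls) and 95.7 and 98.5% (depleted) over 6 domesticus positions. In Zfp64 they had 96.8, 94.1 and 91.5% and 90.9 and 96.1% over 9 domesticus positions. Zfp775 has 11 fingers in its last exon, and held the most positions of any last exon above 80% on either allele. It had 91.7, 93.3 and 94.6% over 15 domesticus positions in controls and 95.0 and 95.5% in the depleted libraries, and 93.9, 93.7 and 98.2% against 92.6 and 95.4% over 12 castaneus positions. The groups were apart on domesticus and overlapped on castaneus.

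Zfp316, a gene with a KRAB motif on chromosome 5 (chr5:143249697-143270022, minus strand), held more positions than any other Zfp gene, 79 on domesticus and 77 on castaneus, all in the last exon that encodes its 14 fingers. Its mean hid a gradient along the exon. On domesticus, fingers 1 to 5 had 75.6% ± 1.63 (SD, n = 3) over 19 positions, the stretch between fingers 5 and 6 had 45.8% ± 3.98 over 40 positions, and fingers 6 to 13 had 21.3% ± 4.96 over 12 positions. On castaneus the same stretches had 67.3% ± 1.89 (14 positions), 42.5% ± 7.22 (22 positions) and 13.7% ± 1.41 (36 positions). The fall was larger than the spread between libraries at each step and was present on both alleles. Within 100 bases on either side lay 20 to 23 CpGs at fingers 1 to 5, 14 to 31 between the finger blocks, and 26 to 39 at fingers 6 to 13. Behind finger 13 mC was higher again, at 37.4% ± 7.79 over 3 coding positions and 52.1% ± 4.31 over 4 untranslated positions on domesticus.

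**Figure D2:**
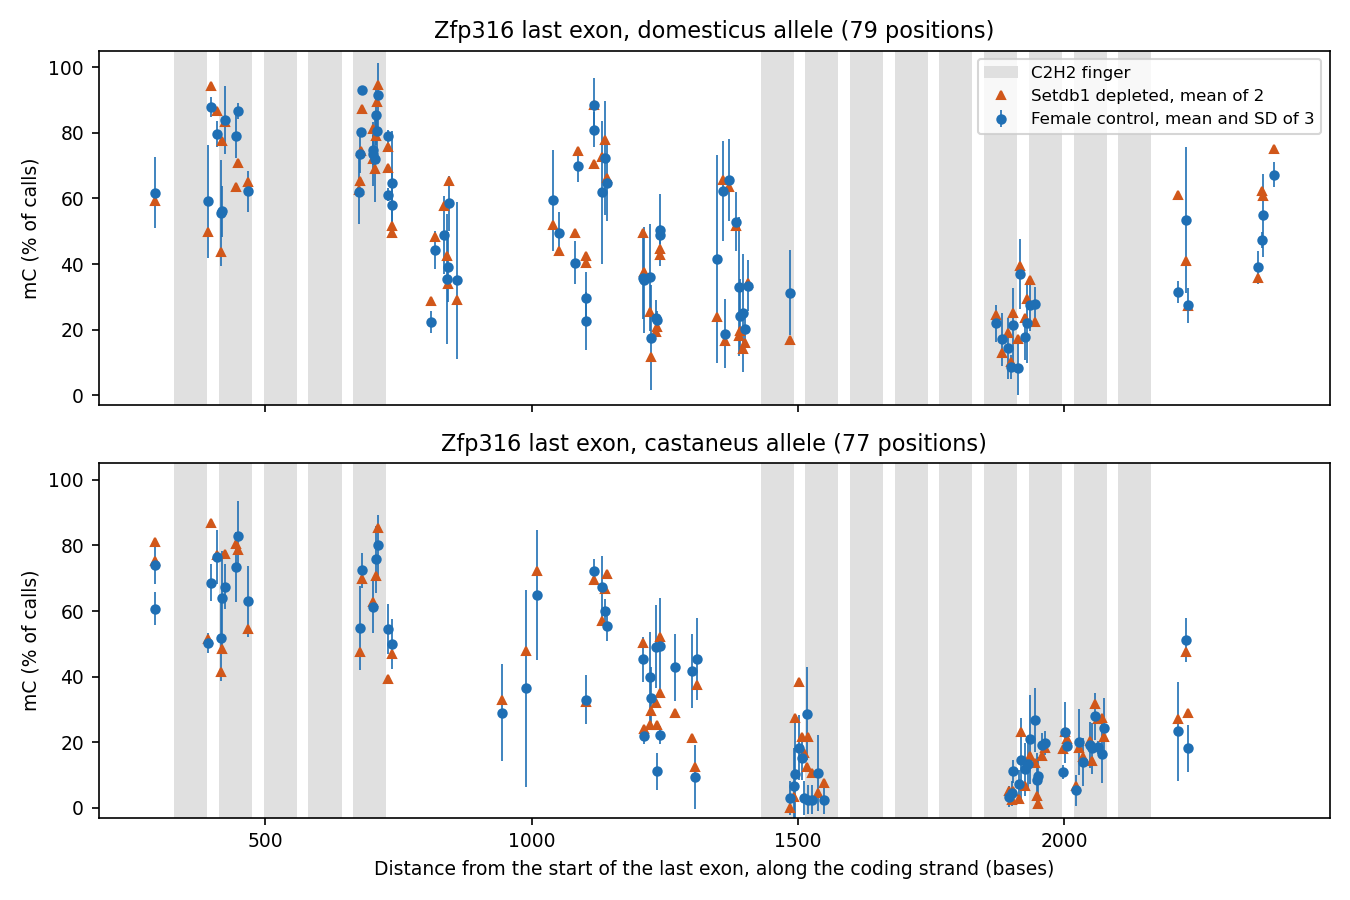
Control mean and SD (circles, n = 3) and depleted mean (triangles, n = 2) of % mC at each measured position of the Zfp316 last exon are plotted against distance from the exon start in bases, with C2H2 fingers shaded, for domesticus (top) and castaneus (bottom). Values fall from 75.6% over fingers 1 to 5 to 21.3% over fingers 6 to 13 on domesticus, and from 67.3% to 13.7% on castaneus.

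Over the whole exon the Zfp316 libraries had 51.3, 45.9 and 51.1% (controls) and 49.7 and 49.3% (depleted) on domesticus, and 32.6, 31.6 and 37.0% and 38.5 and 30.1% on castaneus. The allele gap in these means comes with a different choice of positions, since castaneus had 36 positions in the low finger block and domesticus 12. At the 31 positions measured on both alleles the control means were 60.8% ± 2.91 on domesticus and 54.3% ± 3.12 on castaneus (SD, n = 3). Fingers 1 to 5 had 74.2% mC in the depleted libraries on domesticus and 66.6% on castaneus, and fingers 6 to 13 had 22.9% and 14.9%. The same order of stretches was therefore present in the depleted group.

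Zfpm1 (FOG1), a cofactor of GATA factors in blood development, was also at an intermediate level in its last exon. Its libraries had 61.9, 50.1 and 46.7% (controls) and 50.4 and 56.4% (depleted) over 24 domesticus positions, and 55.9, 49.4 and 44.2% and 41.3 and 51.6% over 22 castaneus positions. The controls differed among themselves by more than the group means did. The 2 C2H2 fingers that the pattern found in it lie outside the last exon. Measured exons other than the last were highly methylated in both Zfp865 and Zfp710. Zfp865 had 90.3% ± 1.32 (SD, n = 3) over 23 domesticus positions, all of them in its fingers 6, 10 and 11. Zfp710 had 89.1% ± 1.80 over 22 castaneus positions, of which 20 lie outside its fingers and 2 in a linker. In both genes the fingers lie before the last exon, so the split by last exon does not follow the split by fingers.

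Of 27 Zfp genes listed for a known role, 11 had positions. Zfp42 (Rex1), a pluripotency marker, had 88.8, 85.2 and 82.8% mC over 6 castaneus last-exon positions in controls and 87.0 and 83.4% in the depleted libraries. All 6 of those positions have a further copy in the reference. Zfp423, a factor of adipocyte and neuronal precursors, had 88.4% ± 1.02 (SD, n = 3) over 10 domesticus positions in its other exons. Zfp335, of a histone H3K4 methyltransferase complex, had 79.3% ± 1.18 over 11 castaneus last-exon positions. Zfp536, a repressor of neuronal differentiation, had 85.7% ± 4.05 over 11 castaneus positions in its other exons, and Zfp217, a partner of the CoREST complex, had 73.2% ± 1.56 over 5. Zfp598, a ubiquitin ligase at collided ribosomes, had 91.7% ± 0.84 over 3 castaneus positions, and Zfp444 had 83.8% ± 1.60 over 2. With Zfp64, Zfpm1, Zfp36l2 and Zfp703 described above, 8 of the 11 genes had control means between 70.0 and 96.2% in every entry measured, and the exceptions were Zfpm1, Zfp36l2 and Zfp703.

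Up to 25 nearby CpGs, Zfp last exons were more methylated than other last exons with the same number of CpGs, except at 11 to 15 CpGs on castaneus, where they had 62.3% ± 1.11 and other last exons 64.1% ± 0.18. That exception turned without Zfp316 (64.97% ± 1.61) and in means of gene means (65.4% against 61.5%). With 16 to 20 CpGs within 100 bases on either side, Zfp last exons had 67.5% ± 2.11 mC (SD over 3 control libraries) on domesticus over 35 positions in 7 genes, and those of other protein-coding genes had 27.8% ± 0.44 over 747 positions. On castaneus the values were 63.7% ± 0.64 over 45 positions in 8 genes and 25.9% ± 0.26 over 781 positions. Without Zfp316 the Zfp values in this bin were 78.2% and 68.6%. Averaging genes instead of positions gave 62.8% and 29.1% on domesticus. With 21 to 25 CpGs the domesticus values were 60.3% ± 4.47 over 40 positions, 28 of them in Zfp316, and 12.2% ± 0.30. This bin held only 3 Zfp genes, the mean of their gene means was 39.6%, and without Zfp316 the Zfp value was 45.3% ± 12.5 over 12 positions in 2 genes. At 6 to 10 CpGs the domesticus levels were 88.2% ± 1.36 and 77.2% ± 0.62. Above 25 CpGs they were 11.9% ± 1.02 and 9.94% ± 0.73, and on castaneus 8.51% ± 0.39 and 6.81% ± 0.30. Without Zfp316 the Zfp values above 25 CpGs were 3.59% on domesticus and 3.64% on castaneus, below those of other genes. Averaged by gene without Zfp316 they were 3.12% against 8.59% on domesticus and 14.7% against 6.26% on castaneus, so the order in this bin depended on the weighting and on that gene. No test over genes was made, and the SD covers libraries, not genes.

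**Figure D3:**
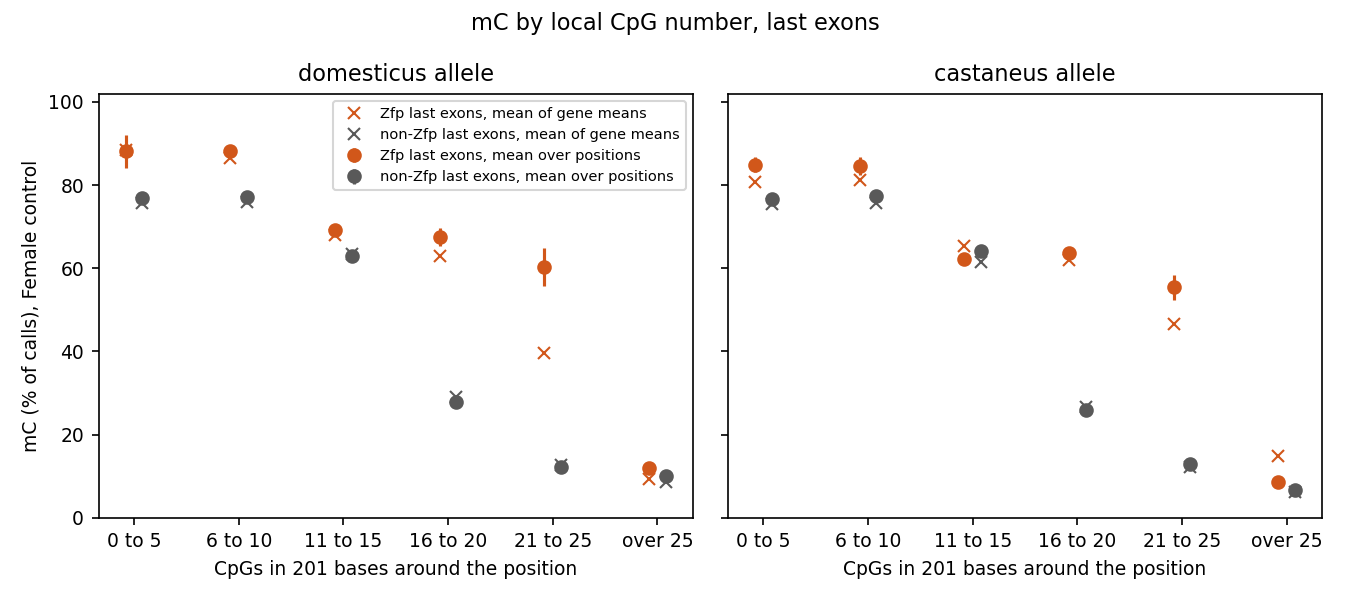
Control mean % mC of last-exon positions is plotted by the number of CpGs within 100 bases on either side for Zfp genes (orange) and other protein-coding genes (grey), on domesticus (left) and castaneus (right), with filled circles for means over positions (bars, SD of 3 libraries) and crosses for means of gene means. The sets are close above 25 CpGs and farthest apart at 16 to 25 CpGs, where means over positions were 67.5 and 60.3% for Zfp and 27.8 and 12.2% for other exons on domesticus, and means of gene means 62.8 and 39.6% for Zfp exons.

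Apart from Zfp316, genes with a KRAB motif had higher mean last-exon mC than those without. Leaving out Zfp316, 41 domesticus positions in 12 KRAB genes had 90.8% ± 0.87 (SD, n = 3), and 180 positions in 27 genes without the motif had 57.7% ± 1.74. None of the KRAB genes was below 20% and 4 of the others were, namely Zfp771, Zfp36l2, Zfp697 and Zfp703. All 4 lower the averages of genes without the motif, and were also below 20% on castaneus. Averages without them were not made. Averaged by gene the difference was smaller, 87.6% against 74.0% on domesticus and 83.3% against 73.4% on castaneus. With Zfp316 counted as one gene they were 84.7% against 74.0% and 78.8% against 73.4%. With Zfp316, which holds most KRAB positions, the castaneus means over positions were 51.2% ± 1.33 with the motif and 53.5% ± 1.90 without, in the opposite order. Still without Zfp316, genes within 250 kb of another Zfp gene had a gene average of 82.3% on domesticus and 82.0% on castaneus, and isolated genes had 72.8% and 67.4%. On domesticus 3 of the 17 isolated genes and 1 of the 22 others were below 20%. Genes with 5 or more fingers averaged 82.4% (31 genes) on domesticus and 82.2% (30 genes) on castaneus. Genes with 1 to 4 fingers averaged 82.0% (6 genes) and 66.8% (5 genes), so the alleles gave a different picture. Among the genes measured in the last exon, no C2H2 finger was found in Zfp36l2 and Zfp703, and both were under 20%. In the other exons, of the genes in which no finger was found, 2 of 3 on domesticus and 1 of 2 on castaneus were above 80%.

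Within last exons that encode fingers, the level of the coding sequence outside the fingers depended on the genes included. Leaving out Zfp316, the domesticus means were 76.0% ± 1.17 in fingers (64 positions), 77.9% ± 1.94 in linkers between them (27 positions) and 54.9% ± 2.75 elsewhere in the coding part (60 positions, 25 of them in Zfp697). Without Zfp697 as well, a choice made after seeing the data, they were 80.7% ± 1.01, 77.9% ± 1.94 and 84.7% ± 0.83, so the order turned. On castaneus the means without both genes were 67.4% ± 0.74, 73.7% ± 2.74 and 84.5% ± 2.01, with 20 of the 75 finger positions in Zfp771. Few genes had positions in both parts. With Zfp697 kept and Zfp316 left out, fingers and linkers were higher in 1 of 4 genes on domesticus and in 3 of 5 on castaneus. Zfp316 has positions in both parts and is not in these counts. The untranslated part had 80.5% ± 0.48 over 25 domesticus positions in 11 genes, and the coding part had 58.2% ± 1.18 over 275 positions in 32 genes. Of the coding positions 75 lie in Zfp316, and averaged by gene the values were closer, 83.0% and 75.4%. In the coding part 4 genes were below 20%, and in the untranslated part 0.

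Last exons as a set had less mC than the other exons of Zfp genes, but the sets held mostly different genes. Only 4 genes on domesticus and 3 on castaneus were measured in both classes. In Zfp64 the last exon had the higher control mean (94.1 against 87.8% on domesticus, 96.2 against 93.7% on castaneus). The same held in Zfp710 (86.5 against 84.4%, 92.99 against 89.1%) and, on domesticus, in Zfp276. In Zfp366 the last exon was lower (89.8 against 95.2%, 86.7 against 91.96%). The difference within genes was not tested. The domesticus libraries had 61.2, 59.8 and 59.2% over 300 last-exon positions in controls and 59.4 and 60.5% in the depleted libraries. Over the 111 positions in other exons they had 69.3, 69.8 and 68.5% and 69.6 and 69.0%. The castaneus libraries had 53.7, 52.3 and 52.1% (controls) and 52.8 and 52.04% (depleted) in the last exons, and 72.4, 72.3 and 71.6% and 70.7 and 72.4% in the others. The last exons were lower in 5 of 5 libraries, by 9.11 points ± 1.02 in the controls on domesticus and by 19.4 points ± 0.69 on castaneus. With more than 20 calls in every library, the minimum used in the study, the domesticus difference was -18.5 points. The order depended on the weighting: with each gene counted alike, the control difference was 0.96 points ± 1.30 on domesticus, now higher in the last exon, and -3.64 ± 0.62 on castaneus. In non-Zfp genes the last exons were 11.9 points lower on domesticus and 12.3 points lower on castaneus. Zfp last exons stood 7.32 points ± 0.97 above non-Zfp last exons on domesticus, higher in 5 of 5 libraries, and -0.19 ± 0.93 on castaneus. The castaneus difference was 3.48 points with more than 20 calls and 6.05 with at least 30, and without Zfp316 the differences were 11.1 and 5.89 points. Zbtb genes, a zinc finger family with a BTB domain, had 81.6% ± 2.27 over 63 domesticus last-exon positions in 11 genes, above the Zfp set.

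With each position weighted alike, the mean mC of Zfp exons differed between control and Setdb1 depleted libraries by less than the range of the libraries within each group. The largest difference, -0.50 points in the castaneus other exons, was more than the control SD there. On domesticus the last exons had 60.1% ± 1.04 (SD, n = 3) without and 59.9% ± 0.77 (SD, n = 2) with depletion, and the other exons had 69.2% ± 0.63 and 69.3% ± 0.44. On castaneus the last exons had 52.7% ± 0.87 and 52.4% ± 0.56, and the other exons 72.1% ± 0.42 and 71.6% ± 1.21. The libraries of the groups overlapped in all 4 sets. With calls pooled over positions instead, the other exons on domesticus had 66.1, 67.1 and 70.3% (controls) and 64.5 and 62.5% (depleted), a difference of -4.33 points with no overlap, and on castaneus the difference was -2.34 points with overlap. Pooling gives more weight to deeply read positions, and without Zfp503, whose 22 positions were near 0, the pooled differences were 1.36 points on domesticus, still with no overlap, and -0.41 on castaneus. The last exons of other protein-coding genes had 52.8% in both groups on domesticus, and 52.8% ± 0.20 and 52.5% ± 0.21 on castaneus. There the groups did not overlap but nearly touched, with the lowest control at 52.6845% and the highest depleted library at 52.6843%.

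Gene by gene, no Zfp exon passed the threshold. Calls were summed over the positions of each gene and exon class, fitted with a quasi-binomial model for all protein-coding genes, and Benjamini-Hochberg adjusted at 0.05. On castaneus 0 of 57 Zfp entries were called, against 1 of 3449 in all (0.029%), and on domesticus 0 of 58, against 2 of 3223 (0.0621%). Without adjustment, 1 castaneus and 3 domesticus Zfp entries had p under 0.05, or 1.75% and 5.17%, beside 5.57% and 5.09% of all entries. In limma on log odds 0 Zfp entries were called on each allele, as were 0 of all 3449 castaneus and 0 of all 3223 domesticus entries. In that fit 1 Zfp entry on each allele (1.75% on castaneus and 1.72% on domesticus) had an unadjusted p under 0.05, beside 5.74% and 5.43% of all entries. On castaneus 28 Zfp entries were lower and 28 higher in the depleted group, and on domesticus 27 were lower and 31 higher. The median difference was 0 points on castaneus and 0.11 on domesticus, beside 0.03 and 0.18 over all entries. Every depleted library lay on one side of all controls in 6 of 57 castaneus entries (10.5%) and 7 of 58 domesticus entries (12.1%), below the 19.9% and 20.8% over all entries. For single positions, 0 of 447 were called on castaneus (0% of all 15664) and 0 of 411 on domesticus (0.0207% of all 14512), with 13 (2.91%) and 12 (2.92%) at an unadjusted p under 0.05, beside 4.24% and 4.0% of all positions.

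**Figure D4:**
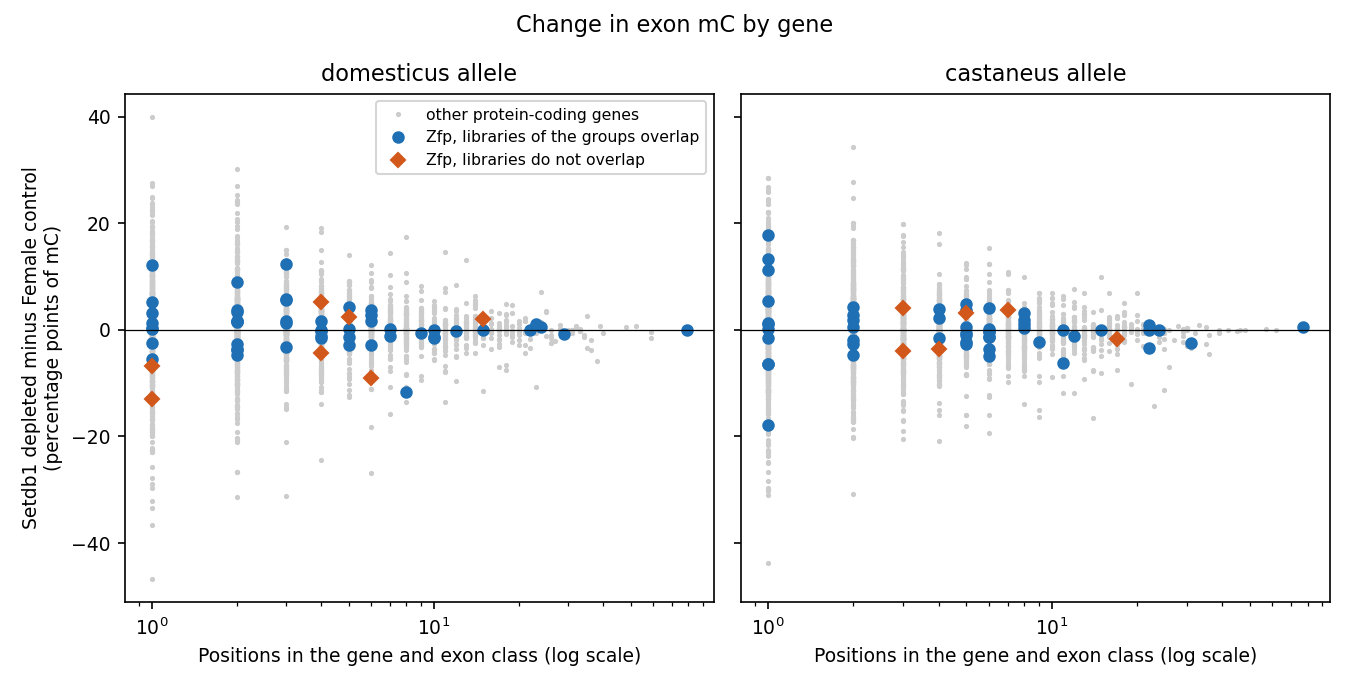
The depleted minus control difference in mean % mC of each gene and exon class is plotted against its number of positions (log scale) on domesticus (left) and castaneus (right), with Zfp entries as blue circles where the groups' libraries overlap and orange diamonds where they do not, and other genes in grey. Zfp entries scatter on both sides of 0 inside the range of the other genes and lie within 5 points of 0 above 11 positions.

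The Zfp last exons with 3 or more positions and no overlap between groups moved in both directions. The widest gap was in Zfp13 on domesticus, with 100, 100 and 96.9% over 6 positions in controls and 94.4 and 85.3% in the depleted libraries (-9.08 points, adjusted p = 0.461 by the quasi-binomial model with limma moderation). On castaneus 6 other positions of this exon had 94.9% ± 1.75 (SD, n = 3) and 95.1% ± 3.18 (SD, n = 2), and no position was measured on both alleles. The remaining domesticus differences were 5.21 points in Zfp747, -4.38 in Zfp619 and 2.08 in Zfp775, and on castaneus they were -3.95 in Zfp366 (DC-SCRIPT, a dendritic cell factor) and 3.73 in Zfp629. None of these had an adjusted p under 0.461 on domesticus or 0.857 on castaneus. Zfp777 had the smallest adjusted p: its 8 domesticus positions had 96.1, 93.6 and 82.1% in controls and 74.7 and 83.2% in the depleted libraries (-11.6 points, adjusted p = 0.449 by the quasi-binomial model with limma moderation). Female control replicate 3 lay inside the depleted range, and without it the adjusted p was 0.0232. Since Zfp777 was singled out after its values were seen, this is a description. The calls over all entries without that replicate are not given here.

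The genes of the KRAB pathway and of DNA methylation gave few positions. Of 21 listed genes, 7 were measured, with 17 domesticus and 16 castaneus positions, and neither Setdb1 nor Trim28 was among them. None of the 7 domesticus or 8 castaneus entries was called in the quasi-binomial model, beside 0.0621% and 0.029% of all entries. None had an unadjusted p under 0.05 in that model, beside 5.09% and 5.57% of all entries. With so few entries, these counts cannot be told apart from those shares. On domesticus 4 entries were lower and 3 higher in the depleted group, and on castaneus 5 and 3. Uhrf1, which recognises hemimethylated DNA, had 97.1% ± 1.73 (SD, n = 3) over 3 domesticus positions in its other exons and 94.3% ± 2.07 (SD, n = 2) in the depleted group. Dnmt1, the maintenance methyltransferase, had 94.4% ± 3.23 and 95.1% ± 2.28 over 3. Dnmt3a, a de novo methyltransferase, had 53.9, 59.2 and 51.8% over 4 domesticus last-exon positions in controls and 66.9 and 72.8% in the depleted libraries, with no overlap. That is a difference of 14.9 points in the mean over positions and 6.19 with calls pooled, and the quasi-binomial model with limma moderation, which uses the pooled calls, gave an adjusted p of 0.992. On castaneus its 2 positions had 49.7% ± 16.7 and 46.1% ± 4.11. Chd3, a helicase of the NuRD complex, had 88.5% ± 7.18 and 89.4% ± 5.86 over 3 castaneus positions, and its 1 domesticus position had 69.9% ± 11.6 and 87.6% ± 9.61.

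Most Zfp exons had close levels on the alleles. Over positions measured on both, castaneus minus domesticus was tested within each library for 47 Zfp entries, with a median of -0.02 points beside -0.15 over all 2263 entries. A mean gap over 10 points was present in 6 of 47 Zfp entries (12.8%) and in 12.2% of all entries. In limma on log odds, 1 Zfp entry passed the threshold, against 10 of 2263 in all (0.442%). It was a noncoding exon of Zfp169, a KRAB gene on chromosome 13. The change of the allele difference with depletion was called by limma in 0 of 47 Zfp entries and in 0 of all 2263. Of the Zfp entries 3 (6.38%) had an unadjusted p under 0.05, beside 4.37% of all entries.

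**Figure D5:**
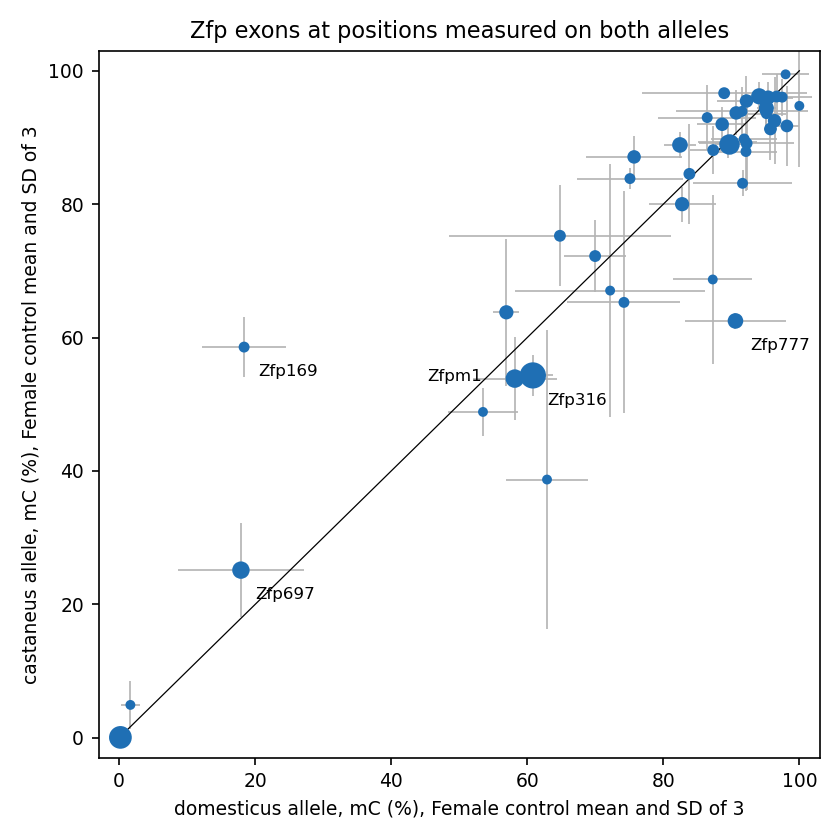
Control mean % mC (SD of 3 libraries as bars) on castaneus is plotted against domesticus for the 47 Zfp gene and exon class entries with positions on both alleles, with larger points for more shared positions and a line of equality. Most points lie along the line, with Zfp169 above it (58.6 against 18.4%) and Zfp777 below it (62.5 against 90.6%).

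In Zfp169 the 2 shared positions had 58.9, 62.9 and 53.9% on castaneus in controls and 52.8 and 60.2% in the depleted libraries. On domesticus they had 15.96, 25.4 and 13.8% and 16.7 and 12.5%. Castaneus was higher in 5 of 5 libraries, by 41.1 points on average, a log2 odds difference of 2.76 (SE 0.36, limma adjusted p = 0.0405). The exon belongs to a retained-intron transcript, 8845 and 8856 bases from the nearest protein-coding start site, and the sequence printed above holds an exact repeat of 34 bases at an offset of 55. The call was lost without any one of the 5 libraries, where the adjusted p was 0.159 to 0.325. The printed letters are those of the reference strain, and the castaneus sequence was not analysed here.

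In Zfp777 the gap ran the other way. At the 8 shared positions, 3 in fingers 6 and 7 and 5 in the linker between them, castaneus had 61.2, 63.2 and 63.1% in controls and 62.7 and 64.5% in the depleted libraries, below the domesticus values of each library given above. The control difference was -28.1 points ± 8.18 and the mean over groups was -21.7 points (limma adjusted p = 0.133), lower in 5 of 5 libraries. The castaneus values lay between 61.2 and 64.5% over the 5 libraries and the domesticus values between 74.7 and 96.1%. Zfp239 had a castaneus excess of 12.3 points over 5 last-exon positions, higher in 5 of 5 libraries (limma adjusted p = 0.286). Neither passed the threshold in limma, whereas a quasi-binomial fit of the calls with the library as a block gave adjusted p-values of 0.00022 for Zfp777 and 0.0219 for Zfp239. Both were singled out after their values were seen. In Zfp316 and Zfpm1 the castaneus allele was 6.17 and 6.25 points lower on average, in 4 and 5 of 5 libraries, with limma adjusted p-values of 0.757 and 0.529, and 0.0462 and 0.0102 in the quasi-binomial fit. That fit called 5 of 47 Zfp entries (10.6%), the fifth being Zfp169, and 6.41% of all entries.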

How the data were processed

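The authors made eRRBS libraries, read single ends, trimmed adapters with Trim Galore and mapped with Bismark to mm10 in which strain polymorphisms were masked. They cut read ends that showed biased calls and assigned reads to an allele at polymorphisms other than C/T, so only reads crossing one are counted. The submitters' processing notes also name CASAVA 1.4. The deposited files, per the file headers from the Bismark methylation extractor 0.13.0, list a methylated or unmethylated call for each read and CpG, with no normalisation. Calls were summed per library, allele and cytosine in Python 3.11.15 (pandas 2.3.3) and joined to GENCODE M21. No molecular identifiers were used, so intervals and zero limits cover counting error only. Zero limits over several positions also take the calls of 1 read as independent, so they are too narrow. Reads marked by the sequencer's filter (5.34 to 5.66% of calls) were kept. The last exon is that of the protein-coding transcript with the longest coding sequence, and exonic positions outside it are the other exons. KRAB, SCAN and C2H2 motifs were searched in translated coding sequences, and copies with blastn 2.17.0.

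A gene's value is the mean over its positions of the percentage of methylated calls in a library. Depleted and control libraries were compared by a quasi-binomial model of summed calls, with the dispersion moderated in limma 3.58.1 (R 4.3.3) and floored at 1, over all protein-coding genes, with Benjamini-Hochberg adjustment at 0.05. Alleles were compared within libraries by limma on log2 odds with 0.5 added to each call count. The models were run on simulated data, and no detection limit for small differences was taken from this. Zfp last exons had 13680 to 15468 calls per library on domesticus and 14820 to 17331 on castaneus. Genes were named for an allele call, for groups that did not overlap in last exons with 3 or more positions, for the 6 lowest and 6 highest last exons (5 or more positions), for the 6 entries with the most positions, and from a list of Zfp genes with a known role and the 4 most measured genes of the KRAB and DNA methylation list. The members and lists were chosen with earlier results of these data known. Alternatives covered the call minimum, strands, exon definition, weighting, pooling, copies and left-out libraries.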

Additional observations from a re-analysis of the deposited data

How the results depend on the processing

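The group means of Zfp exons differed by under 5 points in every alternative, and of 445 alternatives for 42 single-gene values, 401 kept direction and call, 11 gained a call, 6 lost it and 27 turned the sign of a value that was not called in either. The domesticus last-minus-other difference (-9.11) was -18.5 with more than 20 calls, -12.6 with at least 30, -7.32 with strands summed, -5.71 with the last exon of any transcript, -11.0 without copied positions, -5.32 without Zfp316 and 0.96 with genes weighted alike. The castaneus difference (-19.4) was -16.2 with at least 30 calls, -15.5 with calls pooled, -16.8 with the last exon of any transcript, -18.6 without filter-marked reads, -21.7 without copied positions, -13.4 without Zfp316 and -3.64 with genes alike. Zfp minus non-Zfp last exons on domesticus was 10.0 with at least 30 calls and 13.53 with calls pooled, and on castaneus (-0.19) it was 3.48 with more than 20 calls, 6.05 with at least 30 and 3.47 pooled. Depleted minus control in the other exons on domesticus was 0.99 with at least 30 calls, -4.33 pooled and -0.60 with genes alike. On castaneus it was -2.34 pooled and 0.30 with genes alike, and 1.44 pooled in the last exons. Leaving Zfp503 out of the pooled other exons, chosen after seeing the data, gave 1.36 on domesticus and -0.41 on castaneus. The cause of the remaining shifts was not tested.

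Leaving out 1 library at a time, depleted minus control was -0.68 to 0.44 (domesticus last), -0.20 to 0.44 (domesticus other), -0.62 to 0.27 (castaneus last) and -1.36 to 0.36 (castaneus other). Last minus other was -9.66 to -8.66 and -19.8 to -19.1, and Zfp minus non-Zfp 6.76 to 7.60 and -0.72 to 0.13. Without 1 Female control library, called Zfp entries were 0 to 1 on domesticus and 0 on castaneus, with 0 positions and 0 allele differences. The 1 entry was Zfp777, without Female control replicate 3. Calls over all entries in these fits are not given here. Fisher's exact test on pooled calls, which ignores the spread between libraries, called 3 castaneus (5.26%) and 4 domesticus (6.9%) entries, beside 14.1% and 12.5% of all entries, and 19 (4.25%) and 20 (4.87%) positions, beside 5.89% and 5.77% of all. The allele count (1) was 0 with more than 20 calls and 5 of 47 (10.6%, beside 6.41% of all entries) in a quasi-binomial fit with a library block, where Zfp169 and Zfp239 were higher and Zfp777, Zfpm1 and Zfp316 lower on castaneus. Replicate numbers 1 and 2 occur in both groups, but the correlations of same-numbered deviations were -0.055 to 0.022, so they were not taken as pairs. With the replicate block 0 Zfp entries, 0 Zfp positions and 0 Zfp allele differences were called, and calls over all entries are not given here. With 3 and 2 libraries and at least 10 calls a position, small differences at single positions may have been missed, and no detection limit was estimated.

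The turned signs concern differences in the pooled share of methylated calls (a fraction). Leaving out 1 library at a time, castaneus ranges were -0.018 to 0.0267 for Zfp13, -0.0819 to 0.0189 for Zfp169, -0.0163 to 0.0079 for Zfp239, -0.0674 to 0.0268 for Zfp316, -0.0009 to 0.0037 for Zfp771 and -0.0441 to 0.0722 for Zfpm1. Domesticus ranges were -0.0612 to 0.0052 for Zfp169, -0.0611 to 0.0173 for Zfp239, -0.0511 to 0.0211 for Zfp697, -0.0503 to 0.0151 for Zfp710, -0.0154 to 0.0942 for Zfp747 and -0.0298 to 0.0532 for Zfpm1. Zfp775 on domesticus was -0.0031 with more than 20 calls. The Zfp366 allele log2 odds was -0.2814 to 0.2059 without 1 library and 0.2349 with the replicate block, and in the quasi-binomial library block its share difference was 0.0049. Pooling calls instead of averaging positions also turned the sign for Zfp316 (0.05 to -3.52 points on domesticus, 0.55 to -2.32 on castaneus) and Zfpm1 on castaneus (-3.40 to 1.28).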
